A study of Mus musculus with 42 samples.

Results

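The IL-20 subfamily of cytokines and the receptor chains that bind them were followed in skin around wounds of diabetic db/db mice. Members were the 9 genes Il22, Il19, Il20, Il24, Il22ra1, Il22ra2, Il10rb, Il20ra and Il20rb, and each was looked up by its gene symbol among the 20672 probe sets of the deposited table. Of these 9 genes, 7 had a named probe set, which were 2 cytokines (Il20 and Il24) and 5 receptor chains. No probe set was named Il22 or Il19, so neither cytokine was measured here.

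The cytokines of this subfamily belong to the IL-10 family and signal through paired chains of class II cytokine receptors. IL-22 binds IL-22R, encoded by Il22ra1, together with IL-10Rb. IL-19, IL-20 and IL-24 share IL-20Rb, which pairs with IL-20Ra or, for IL-20 and IL-24, with IL-22R. IL-22 binding protein, encoded by Il22ra2, is a soluble receptor that captures IL-22. In skin these receptors act mainly on keratinocytes, where Jak1 and Tyk2 pass the signal to Stat3 and Socs proteins dampen it.

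The data came from Affymetrix Mouse430V2 arrays, 42 in 9 groups. Of these, 37 were on wounds 6 mm across made in female db/db mice at an age of 10 to 12 weeks. These mice lack a working leptin receptor. At 24 h after wounding and 1 topical dose there were 5 arrays each for IL-22-Fc, a fusion of the cytokine with an antibody Fc, for VEGF, the growth factor of blood vessels, and for PDGF, the growth factor of fibroblasts and other mesenchymal cells, and 4 for a control protein. At day 7, after repeated doses with the last on day 6, there were 5 arrays for IL-22-Fc, 5 for VEGF, 3 for PDGF and 5 for the control. A further 5 arrays came from untreated skin taken as a baseline. For the control, the labels name an antibody to ragweed, and the methods a control Fc. The label of the 24 h IL-22-Fc samples gives 50 µg where the design text gives 20 µg, which it also gives at day 7. For the control the design text gives 50 µg, and the labels give 20 µg for VEGF and 50 µg for PDGF. The methods give 50 µg for each of the 4 day 7 treatments. The strain is labelled C57BL/6, while the methods list the db/db mice as BKS.Cg-Dock7m Leprdb. The labels of the untreated mice give neither genotype nor age, and the design text lists a lean dbm group that no label names. The sample names of the untreated mice also carry a prefix of their own. Wounding, genotype and any batch therefore cannot be told apart in comparisons with untreated skin.

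The values are log2 of the RMA intensity. A level counted as above background where it exceeded the 95th percentile of 70 probe sets for odour and pheromone receptors on the same array, which was 4.60 to 5.21. Il22ra2, Il20ra and Il20rb were above it on all 42 arrays, Il22ra1 and Il10rb on 40, Il24 on 30 and Il20 on 25. Keratinocyte markers (Krt5, Krt14 and 7 others) had summed intensities of 23429 to 47224, and the 4 genes not expected in female skin were at background on every array. Untreated replicate 5 stood apart, with a mean correlation of 0.944 to its own group where the other 4 had 0.977 to 0.980, and results against untreated skin that changed without it are given both ways. The 3 PDGF arrays of day 7 had low levels of the probe set at the 5' end of Gapdh, 11.26 to 11.60, where the day 7 control had 12.82 to 12.99. Replicate numbers are running names, and nothing states that arrays of a group came from separate mice, so p-values measure the spread between arrays, which may be technical.

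For 3 of the receptor chains described below, the sequence ahead of the annotated start was examined for the motif of STAT proteins, TTCNNNGAA, and for that of AP-1, TGANTCA, which read the same on both strands. These are the chains of IL-22R, IL-20Ra and IL-20Rb, whose levels were all lower in VEGF wounds at day 7, and each line gives the 250 bases before the start from RefSeq, build GRCm38.p6, 5′ to 3′ on the gene's strand, with any motif match in capitals.
Il22ra1, chr4:135727909-135728158, plus strand: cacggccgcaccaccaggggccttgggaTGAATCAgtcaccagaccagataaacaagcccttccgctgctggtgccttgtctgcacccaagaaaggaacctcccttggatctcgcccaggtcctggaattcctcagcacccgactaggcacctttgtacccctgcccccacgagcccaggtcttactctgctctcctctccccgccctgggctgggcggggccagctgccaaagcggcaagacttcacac
Il20ra, chr10:19712337-19712586, plus strand: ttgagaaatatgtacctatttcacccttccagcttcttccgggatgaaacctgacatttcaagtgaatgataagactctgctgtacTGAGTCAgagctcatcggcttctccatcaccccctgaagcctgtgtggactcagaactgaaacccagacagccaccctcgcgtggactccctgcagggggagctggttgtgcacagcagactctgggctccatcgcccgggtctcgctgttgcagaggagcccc
Il20rb, chr9:100486474-100486723, minus strand: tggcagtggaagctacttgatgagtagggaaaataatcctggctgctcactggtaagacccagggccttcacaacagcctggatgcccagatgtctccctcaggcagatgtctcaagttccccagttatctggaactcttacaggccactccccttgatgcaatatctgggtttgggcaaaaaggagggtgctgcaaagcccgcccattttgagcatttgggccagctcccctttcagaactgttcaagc
The windows ahead of Il22ra1 and Il20ra each held 1 match to TGANTCA and no STAT match, and that ahead of Il20rb held neither. This pattern leaves its middle base open, which was A ahead of Il22ra1 and G ahead of Il20ra. Of 32851 windows that also held the first bases of the transcript, 7.81% held TGANTCA and 8.3% the STAT motif. A match is a description of the sequence only. RefSeq promoter windows were found for 6 of the 9 members.

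At day 7, VEGF was the treatment with the most members called against control wounds. Il22ra1, Il22ra2 and Il20rb were lower with VEGF by 1.96-fold, 2.06-fold and 1.72-fold, and neither cytokine passed the test. A gene was called where limma gave a Benjamini-Hochberg adjusted p under 0.05 over all probe sets and a change of at least 1.5-fold. By this rule 3 of 7 members were called lower and none higher, where 5.55% of all probe sets were called in either direction. The median change was -0.50 over the members and -0.01 over all probe sets.

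Il22ra1, the signalling chain for IL-22, read 5.25, 5.21, 4.74, 4.96 and 5.12 with VEGF at day 7, against 6.15, 6.04, 6.00, 6.29 and 5.65 in control wounds. The groups did not overlap, and 2 of the VEGF arrays were not above background. The log2 fold change was -0.97 with a standard error of 0.12 (adjusted p = 5.4e-06). Il22ra2, the soluble IL-22 binding protein, read 6.43, 6.87, 6.79, 6.42 and 6.46 with VEGF, against 7.92, 7.88, 7.30, 7.91 and 7.17 in the control. Every VEGF array lay below every control array, with a log2 fold change of -1.04 (SE 0.16, adjusted p = 0.0001). Il20rb, the chain shared by IL-19, IL-20 and IL-24, read 6.39, 6.86, 6.50, 6.52 and 6.86 with VEGF, against 7.41, 7.36, 7.30, 7.61 and 7.35 in the control. These groups too were separate, and the log2 fold change was -0.78 (SE 0.11, adjusted p = 3.6e-05). Il20ra, which pairs with IL-20Rb, read 6.43, 6.41, 6.37, 5.93 and 6.39 with VEGF, against 7.09, 6.91, 6.62, 6.98 and 6.46 in the control. No VEGF array reached the lowest control array, but the change of -0.50 (SE 0.13, adjusted p = 0.01) fell short of 1.5-fold. Without control replicate 5 it was -0.59 and was called.

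Il10rb, the broadly expressed chain that also serves IL-10 and the lambda interferons, did not go the same way. It read 5.20, 5.48, 5.47, 5.07 and 5.68 with VEGF, against 5.11, 5.14, 5.23, 4.85 and 4.93 in the control, so the ranges overlapped. The change was 0.33 (SE 0.11) with an adjusted p of 0.052. Il20 and Il24 differed by 0.06 and -0.11 (adjusted p = 0.79 and 0.86), and most of their readings in these groups lay near background.

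**Figure D1:**
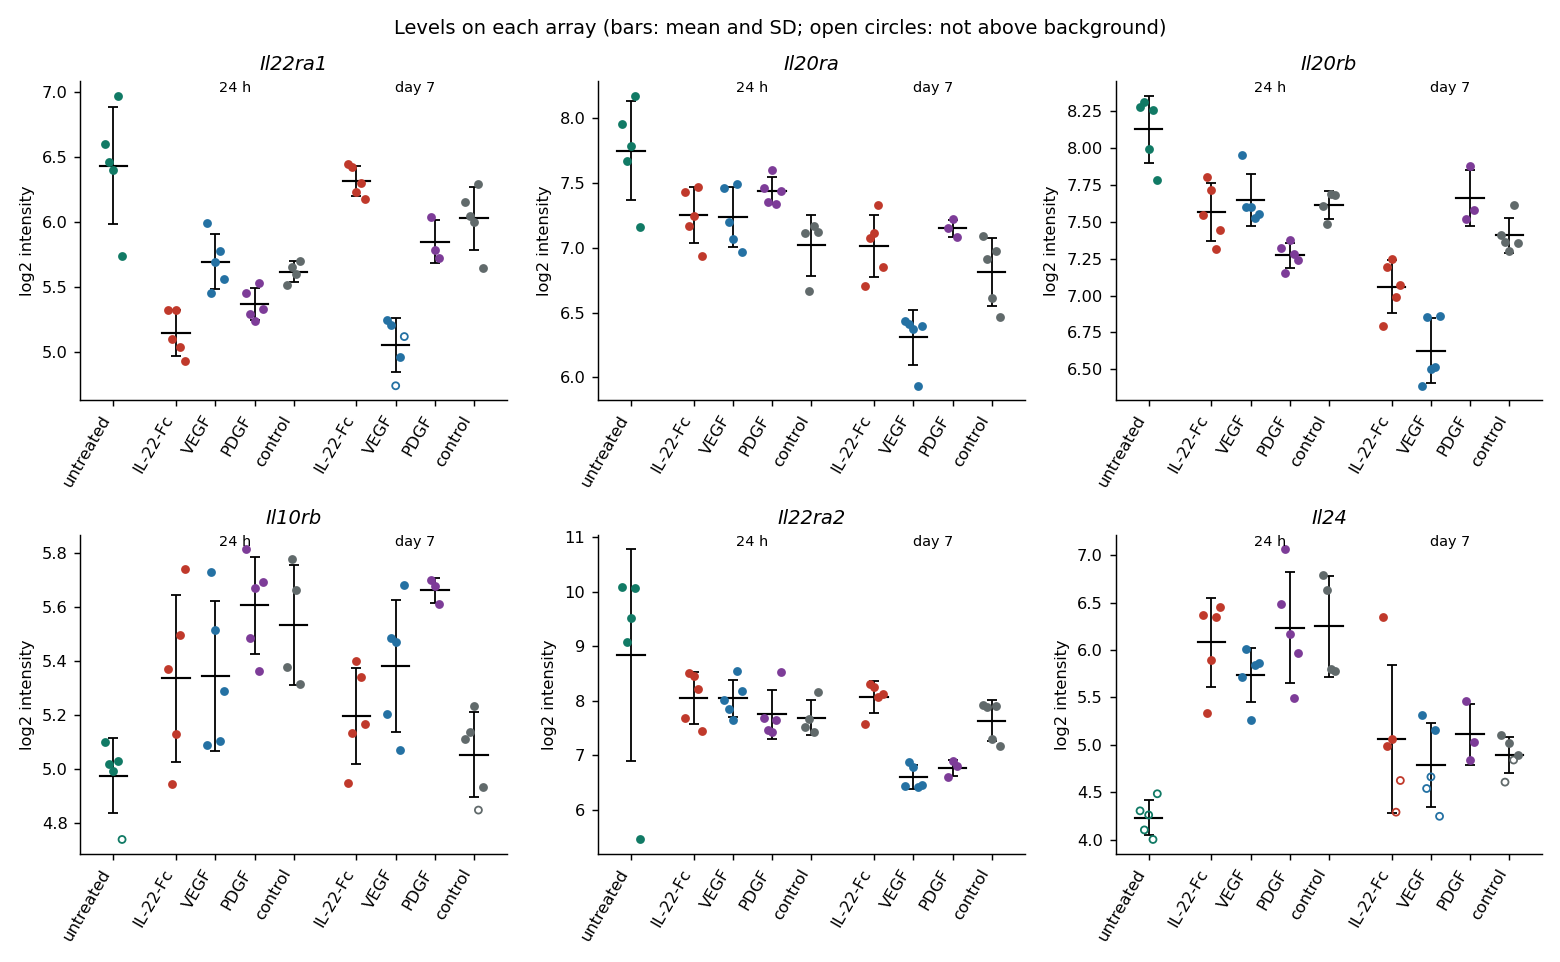
Log2 RMA intensity (vertical axis) of 5 receptor chains and Il24 on each array, by group, with untreated skin first and then the treatments at 24 h and at day 7. Points are arrays, bars are the mean and SD, and open circles are readings not above background. The VEGF arrays of day 7 lie below all day 7 control arrays for Il22ra1, Il22ra2, Il20ra and Il20rb. The group means of Il24 are highest in the 24 h wounds, although an IL-22-Fc array of day 7 reads 6.34.

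Markers of keratinocytes moved in the same VEGF wounds. Of 9 measured markers, 6 were called lower than in the control, led by Sfn (-0.98), Itgb4 (-0.95), Dsc3 (-0.90) and Krt5 (-0.81), and the summed intensity of the 9 was 23429 to 27675 with VEGF, against 33973 to 41148 in the control. All 7 endothelial markers were called higher, with a median change of 1.40. Of 6 adipocyte markers, 5 were called lower with a median change of -0.93, among them Pck1 (-1.32) and Lep (-1.21), and their summed intensity was 1860.3 to 3057.1 with VEGF, against 4009.5 to 5533.7 in the control. The part of endothelial and adipocyte markers in the result was not tested. In bulk skin, fewer cells of a type and less RNA per cell cannot be told apart. When the mean log2 level of the keratinocyte markers on the same array was subtracted, a step added after seeing the data, the difference between VEGF and control was -0.30 for Il22ra1 (2-sided exact permutation p = 0.0317), -0.37 for Il22ra2 (p = 0.127), -0.11 for Il20rb (p = 0.579) and 0.17 for Il20ra (p = 0.349). All 4 ranges then overlapped, and over the 20 differences of this kind that were computed the smallest adjusted p among these 4 was 0.065.

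**Figure D2:**
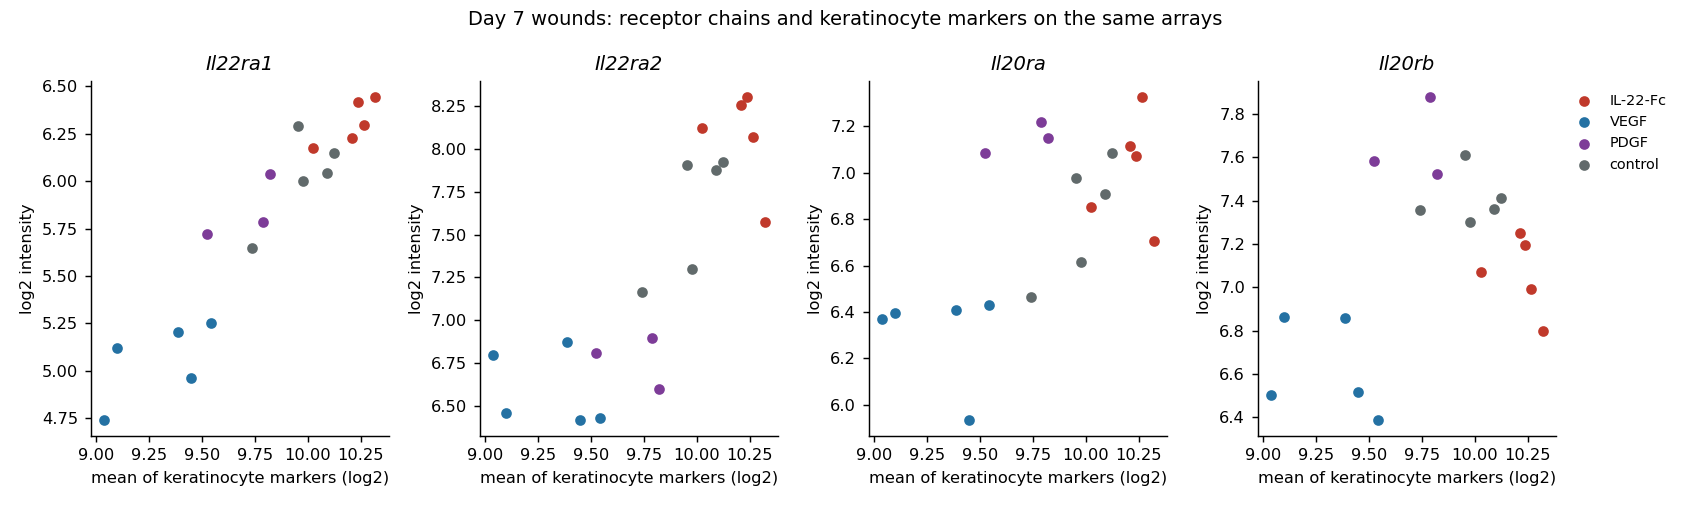
Log2 intensity of 4 receptor chains (vertical axes) against the mean log2 level of 9 keratinocyte markers on the same array (horizontal axis) in the 18 day 7 wounds, coloured by treatment. The 5 VEGF arrays have marker means of 9.04 to 9.54, below all IL-22-Fc and control arrays and overlapping the lowest PDGF array at 9.52, and PDGF arrays lie above the VEGF arrays for Il20ra and Il20rb.

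Lists of other genes of the pathway were read in the same VEGF wounds. Of 14 measured genes of the JAK-STAT chain, Socs2, a feedback inhibitor, was called higher (0.68, adjusted p = 0.0033) and none lower, while Jak1 and Ptpn6 differed by 0.21 and 0.19 without passing. None of the 10 other class II cytokines and receptors was called in the limma fit, and 4 of them passed the adjusted p without the fold, namely Ifnar2 (0.58), Ifnlr1 (-0.49), Ifngr2 (0.32) and Ifnar1 (0.27), the last 2 chosen after their values were seen. Of 22 keratinocyte genes known to respond to IL-22, 6 were called lower and none higher, including the IL-36 cytokine genes Il1f6 (-1.35) and Il1f8 (-0.94) and the wound keratin Krt16 (-0.81). The median change of this list was -0.50.

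With IL-22-Fc no member was called against control wounds at day 7, where 2.30% of all probe sets were. In the limma fit 4 of the 7 had an unadjusted p under 0.05, a looser limit for which the share of all probe sets is not given here. The receptor of the applied cytokine, Il22ra1, read 6.44, 6.42, 6.23, 6.29 and 6.17 with IL-22-Fc, against 6.15, 6.04, 6.00, 6.29 and 5.65 in the control. The ranges overlapped and the change was 0.29 (SE 0.12, adjusted p = 0.18). Il22ra2 read 7.57, 8.30, 8.25, 8.07 and 8.13 with IL-22-Fc, against 7.92, 7.88, 7.30, 7.91 and 7.17 in the control, a difference of 0.43 (SE 0.16, adjusted p = 0.14). Il20rb read 6.80, 7.20, 7.25, 6.99 and 7.07 with IL-22-Fc, against 7.41, 7.36, 7.30, 7.61 and 7.35 in the control. Here the groups did not overlap, although the change of -0.35 (SE 0.11) had an adjusted p of 0.074. Relative to the keratinocyte markers, Il20rb differed by -0.58 without overlap (exact permutation p = 0.00794, the smallest possible, and 0.026 when adjusted over the 20 differences). This subtraction was added after seeing the data, and its adjustment did not cover all probe sets. The subtracted mean was itself 0.24 higher with IL-22-Fc (exact permutation p = 0.0238), which enlarges the difference for Il20rb.

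Il20 had its highest group mean in these wounds. It read 5.39, 4.85, 5.07, 5.04 and 5.15 with IL-22-Fc at day 7, against 4.97, 4.74, 4.93, 4.69 and 4.72 in the control. All 5 IL-22-Fc arrays were above background, as were 3 of the 5 control arrays, and the difference was 0.29 (SE 0.10, adjusted p = 0.097). Il24, Il10rb and Il20ra differed by 0.17, 0.14 and 0.20, with adjusted p-values of 0.80, 0.54 and 0.44. The 95% interval for Il22ra1 was 0.05 to 0.53, so a change of 1.5-fold, 0.585 on this scale, lay outside it.

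Genes of the list known to respond to IL-22 did change in the same arrays. Of the 22 keratinocyte genes known to respond to IL-22, 9 were called higher and 2 lower, with a median change of 0.63 where all probe sets had -0.00. The study had reported antimicrobial families of this list, among them S100 and Lcn2, as raised by IL-22-Fc in these same data. The count is therefore a description and no independent test. The antimicrobial genes Defb3 (4.64) and Defb4 (2.16) and the acute phase gene Saa1 (4.14) rose most, and the barrier gene Lor fell by 2.44. Cxcl1 (0.97, adjusted p = 0.53) and Krt16 (0.68, adjusted p = 0.066) did not pass. In the JAK-STAT chain 1 of 14 genes was called, the inhibitor Socs1 (0.66, adjusted p = 0.01). Socs3, the best known feedback inhibitor of Stat3, had a larger mean change of 1.03 that did not pass (adjusted p = 0.12), and Stat3 itself differed by 0.49 (adjusted p = 0.004), short of 1.5-fold. No gene was called among the 10 other class II cytokines and receptors or the 14 inducers of Il22 and genes of its producing cells. In both lists the largest differences, Ifngr1 at 0.32 and Il1b at 1.16, did not reach the rule.

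PDGF at day 7 gave 1 member higher and 1 lower against the control, where 16% of all probe sets were called. Il22ra2 read 6.60, 6.90 and 6.81 with PDGF, against 7.92, 7.88, 7.30, 7.91 and 7.17 in the control. The groups were separate and the change was -0.87 (SE 0.18, adjusted p = 0.00086). Il10rb read 5.70, 5.68 and 5.61 with PDGF, against 5.11, 5.14, 5.23, 4.85 and 4.93 in the control. The groups were separate, and the rise of 0.61 (SE 0.13, adjusted p = 0.00078) was just past 1.5-fold. It was 0.56 without control replicate 4 and 0.58 without control replicate 5, where it was no longer called. Il22ra1, Il20ra and Il20rb differed by -0.18, 0.34 and 0.25 (adjusted p = 0.33, 0.086 and 0.14). Relative to the keratinocyte marker mean, a step added after seeing the data, Il20ra differed by 0.61, Il20rb by 0.52 and Il22ra2 by -0.60. None of these overlapped the control. Exact permutation p was 0.0179, 0.0357 and 0.0357, and 0.051, 0.065 and 0.065 when adjusted over the 20 differences. Il22ra1 differed by 0.09 with overlap. The subtracted mean itself differed by -0.26 (exact permutation p = 0.0893).

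The low 5' levels of the PDGF arrays stood with the called changes of Il22ra2 and Il10rb. With the mean 5' level of Gapdh and Actb as a covariate, Il22ra2 changed by -1.70 (adjusted p = 0.13) and Il10rb by 0.16 (adjusted p = 0.90), and no member was called. The 5' level separates PDGF from the other groups, so treatment and RNA quality cannot be told apart for this group. Markers of dendritic cells moved too, with 5 of 10 called higher, Itgax (1.43) and H2-Ab1 (1.31) first among them, and a summed intensity of 12908 to 14640 against 5837.6 to 8822.9 in the control. Of 6 adipocyte markers 5 were called lower (median -0.85), with a summed intensity of 1365.7 to 2693.2 against 4009.5 to 5533.7 in the control, and 4 of 8 fibroblast markers were lower (median -0.57). Their part in the result was not tested. Of the JAK-STAT chain 5 of 14 genes were called higher, led by Socs2 (1.12) and Cish (0.85). The IL-10 receptor chain Il10ra (0.99) and the interferon receptor chain Ifnar2 (0.94) were the 2 of 10 other class II genes called, both higher. Among 22 genes known to respond to IL-22, 7 were lower, such as Il1f8 (-2.66) and Reg3g (-1.68), and Defb3 was higher (2.18).

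The treatments were also set against each other at day 7. Il22ra1 was 1.26 higher with IL-22-Fc than with VEGF (SE 0.12, adjusted p = 7.5e-08), Il22ra2 was 1.47 higher (SE 0.16, adjusted p = 7.2e-07) and Il20ra 0.71 higher (SE 0.13, adjusted p = 0.00035). These 3 of 7 members were called, where 8.48% of all probe sets were, and Il20rb, 0.43 higher (adjusted p = 0.0059), was short of 1.5-fold. Between IL-22-Fc and PDGF, Il22ra2 was 1.30 higher (SE 0.18, adjusted p = 1e-05) and Il20rb 0.60 lower with IL-22-Fc (SE 0.13, adjusted p = 0.00071), 2 of 7 where 17.9% of all were called. The Il20rb call was lost without IL-22-Fc replicate 1 (-0.53) or 4 (-0.58) or PDGF replicate 2 (-0.49). Between VEGF and PDGF, Il20rb (-1.03), Il20ra (-0.84) and Il22ra1 (-0.79) were lower with VEGF, 3 of 7 where 20.0% of all were called. Il22ra2 differed there by -0.17 (95% interval -0.56 to 0.21, adjusted p = 0.52). With the 5' covariate no member was called in either comparison with PDGF. These contrasts share the arrays of each group with those against the control. The mean log2 level of the keratinocyte markers was 10.21 with IL-22-Fc, 9.30 with VEGF and 9.71 with PDGF. The part of these marker levels in the contrasts was not tested.

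A moderated F test of all 4 groups of day 7, which asked for an adjusted p under 0.001 and a range of at least 2-fold, gave the same 3 receptor genes, Il22ra1, Il22ra2 and Il20rb, where 10.4% of all probe sets passed. Their group means spanned 2.39-fold for Il22ra1 (adjusted p = 1.3e-07), 2.77-fold for Il22ra2 and 2.05-fold for Il20rb. The span of Il20rb was that between PDGF and VEGF. The F test used the same 18 arrays as the pairwise comparisons of day 7.

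**Figure D3:**
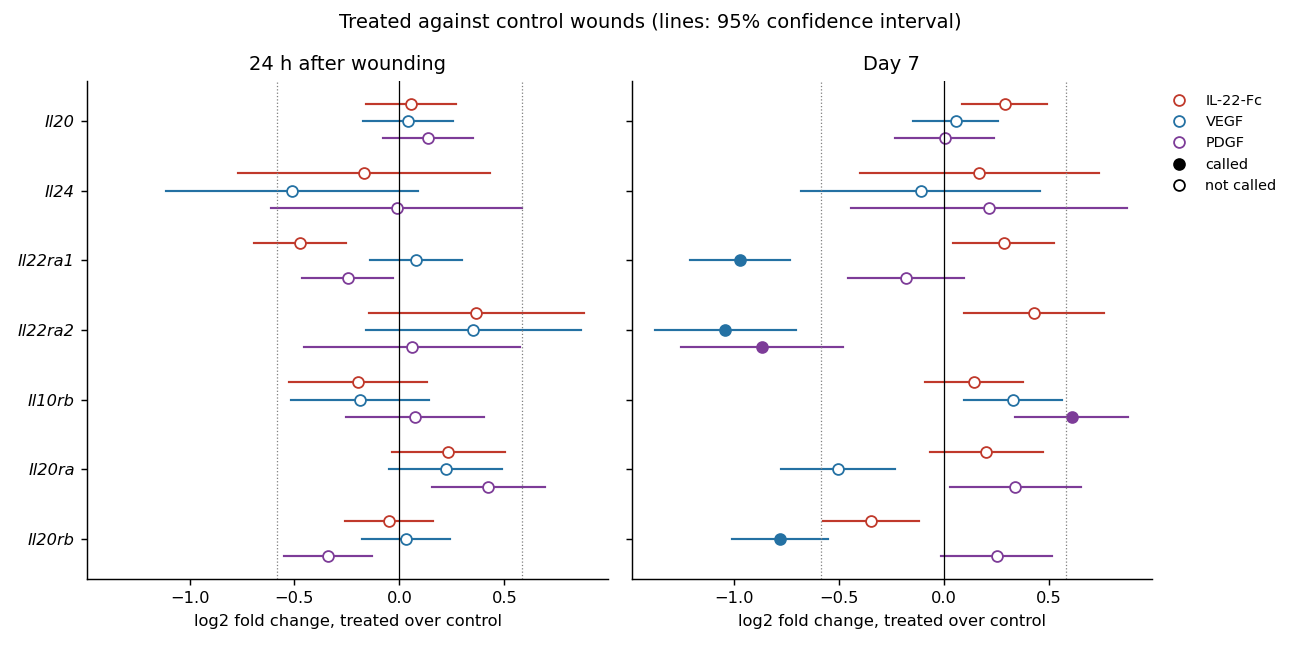
Log2 fold change of each measured member (horizontal axis) for IL-22-Fc, VEGF and PDGF over the control of the same time, at 24 h and at day 7, with 95% confidence intervals from limma. Filled points were called, and dotted lines mark 1.5-fold. No point is filled at 24 h, and 5 are at day 7, 3 of them VEGF.

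At 24 h, after 1 dose, no member was called against the control for any treatment. The shares of all probe sets called were 0.0967% for IL-22-Fc, 0.102% for VEGF and 0.914% for PDGF. By the limma fit 1, 0 and 3 members had an unadjusted p under 0.05, a looser limit to which these shares do not apply. Il22ra1 read 5.32, 5.10, 5.33, 5.04 and 4.93 with IL-22-Fc at 24 h, against 5.51, 5.65, 5.60 and 5.70 in the control. The IL-22-Fc arrays all lay below the control arrays, yet the change of -0.47 (SE 0.10) had an adjusted p of 0.13. With PDGF, Il20ra was 0.42 higher (adjusted p = 0.099) and Il20rb 0.34 lower (log2 fold change -0.34, adjusted p = 0.087), both without overlap. With VEGF the difference furthest from 0 was the -0.51 of Il24 (adjusted p = 0.58), whose 4 control readings ran from 5.78 to 6.79. None of the 14 JAK-STAT genes was called for any of the 3 treatments, and of the 22 genes known to respond to IL-22, 1 was called lower with IL-22-Fc, 0 with VEGF and 2 higher with PDGF.

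Between treatments at 24 h no member was called either, where 0.431% of all probe sets were called for IL-22-Fc against VEGF, 2.78% for IL-22-Fc against PDGF and 3.45% for VEGF against PDGF. Unadjusted p-values under 0.05 were found for 1, 2 and 2 members in limma, a looser limit to which these shares do not apply. Il22ra1 differed by -0.55 between IL-22-Fc and VEGF (SE 0.10, adjusted p = 0.0069), just short of 1.5-fold, and did not overlap, at 5.32, 5.10, 5.33, 5.04 and 4.93 with IL-22-Fc against 5.99, 5.45, 5.69, 5.78 and 5.56 with VEGF. It was called without IL-22-Fc replicate 1 or 3 or VEGF replicate 2 (-0.60, -0.60 and -0.61). Il20rb differed by 0.37 between VEGF and PDGF without overlap (adjusted p = 0.016).

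The effect of a treatment at day 7 was then set against its effect at 24 h in a single fit of the 37 wound arrays. Il22ra1 with IL-22-Fc stood at -0.47 against its control at 24 h and at 0.29 at day 7, and the difference of 0.76 (SE 0.16, adjusted p = 0.0082) was called, 1 of 7 members where 1.43% of all probe sets were. With 16 added before log2 it was 0.57 (adjusted p = 0.0072), short of 1.5-fold and not called. For VEGF the 4 chains Il22ra2 (-1.39), Il22ra1 (-1.05), Il20rb (-0.81) and Il20ra (-0.72) were all called more negative at day 7, with adjusted p-values from 2.1e-05 to 0.01, where 6.00% of all were called. Il10rb was called in the other direction, more positive at day 7, without VEGF replicate 2 of 24 h (0.61, adjusted p = 0.041). The mean log2 level of the keratinocyte markers was 10.03 both with VEGF and in the control at 24 h. At day 7 it was 9.30 with VEGF and 9.98 in the control, and its part in these differences was not tested. For PDGF, Il22ra2 (-0.93, adjusted p = 0.028) and Il20rb (0.59, adjusted p = 0.0041) were called, where 20.9% of all were. The doses given by then also differed, 1 dose at 24 h and several at day 7, so time and dosing cannot be told apart.

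The 2 PDGF values depended on the 5' level and on single arrays. With the 5' level as a covariate the differences were -1.44 for Il22ra2 (adjusted p = 0.24) and 0.31 for Il20rb (adjusted p = 0.65), and neither was called. The Il22ra2 difference was not called without PDGF replicate 1 of day 7, control replicate 1 of day 7 or control replicate 1 of 24 h, and Il20rb not without PDGF replicate 2 of either time, control replicates 2, 3 and 5 of day 7 or control replicate 4 of 24 h. The count of called members ranged from 0 to 3 as arrays were left out in turn, and was 0 without PDGF replicate 5 of 24 h or control replicate 3 of 24 h. PDGF replicate 5 of 24 h read 8.52 for Il22ra2, where the others had 7.42 to 7.69. Without it the Il22ra2 difference was -0.73 (adjusted p = 0.067).

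Control wounds were then compared with untreated skin. Il24, a cytokine that keratinocytes and myeloid cells make when stimulated, rose at 24 h, and the chains Il22ra1 and Il20ra were lower. At 24 h 1 member was called higher and 2 lower, where 18.2% of all probe sets were called. Il24 read 6.79, 6.63, 5.80 and 5.78 in control wounds at 24 h, against 4.31, 4.10, 4.26, 4.00 and 4.49 in untreated skin. All untreated readings were below background and all wound readings above it, so the rise was at least 2.83-fold (adjusted p = 9.1e-07), where the bound takes the mean of the wound readings over the higher of each untreated reading and the background level of its array. Il22ra1 read 5.51, 5.65, 5.60 and 5.70 in the wounds, against 6.59, 6.46, 6.40, 6.97 and 5.73 in untreated skin. This was a change of -0.81 (SE 0.15, adjusted p = 2.8e-05) without overlap. Il20ra read 7.11, 6.67, 7.17 and 7.12 in the wounds, against 7.96, 7.67, 7.78, 8.17 and 7.16 in untreated skin, a change of -0.73 (SE 0.16, adjusted p = 0.00024) with overlap through untreated replicate 5. Il20rb changed by -0.51 (adjusted p = 0.00052) and Il10rb by 0.56 (adjusted p = 0.0016), both short of 1.5-fold. Il10rb was called without control replicate 1 (0.61) or 4 (0.63) or untreated replicate 1 (0.59).

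At day 7, 3 members were called lower in control wounds than in untreated skin and none higher, where 15.7% of all probe sets were called. Il20ra read 7.09, 6.91, 6.62, 6.98 and 6.46 in the wounds, against 7.96, 7.67, 7.78, 8.17 and 7.16 in untreated skin, and was separate at -0.94 (SE 0.15, adjusted p = 2.8e-06). Il20rb read 7.41, 7.36, 7.30, 7.61 and 7.35 in the wounds, against 8.28, 8.31, 7.99, 8.26 and 7.78 in untreated skin, also separate, at -0.72 (SE 0.11, adjusted p = 1.8e-06). Il22ra1 differed by -0.41 (adjusted p = 0.02), short of 1.5-fold, and Il24 by 0.66 (adjusted p = 0.06). For Il24 only 3 of the 5 wound readings and none of the untreated readings were above background, so no lower bound is given. The mean of the keratinocyte markers differed by 0.05 at 24 h and by -0.00 at day 7 between control wounds and untreated skin (exact permutation p = 0.77 and 0.984). Relative to that mean, a step added after seeing the data, Il20ra differed by -0.78 at 24 h and -0.94 at day 7. Each difference was without overlap (exact permutation p = 0.00794, the smallest possible). Without untreated replicate 5 these differences were -0.84 and -0.99.

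Il22ra2 turned on 1 array. It read 7.92, 7.88, 7.30, 7.91 and 7.17 in control wounds at day 7 and 7.52, 7.66, 7.43 and 8.16 at 24 h, against 10.09, 9.08, 9.52, 10.06 and 5.46 in untreated skin. The first 4 untreated readings lay above every wound reading of the series, and replicate 5 lay below every one. With all arrays the change was -1.21 at day 7 (SE 0.45, adjusted p = 0.032) and -1.15 at 24 h (SE 0.48, adjusted p = 0.052), which was called without control replicate 4 of 24 h (-1.30, adjusted p = 0.048). Without replicate 5 it was -2.05 at day 7 (adjusted p = 3.7e-09) and -2.00 at 24 h (adjusted p = 2e-08). The counts of called members became 4 at day 7 and 5 at 24 h, where 17.3% and 21.2% of all probe sets were then called. In this setting Il24 at day 7 (0.73, adjusted p = 0.047) and Il20rb at 24 h (-0.59, adjusted p = 4.8e-05) passed. The day 7 call for Il22ra2 was lost without any 1 of untreated replicates 1 to 4 or control replicates 3 and 5, with adjusted p-values of 0.062 to 0.14. Replicate 5 also had the lowest 5' level of Gapdh of all 42 arrays, 11.14, whose part in the low reading was not tested. With the 5' level as a covariate the Il22ra2 change was -1.61 at 24 h and -1.90 at day 7.

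**Figure D4:**
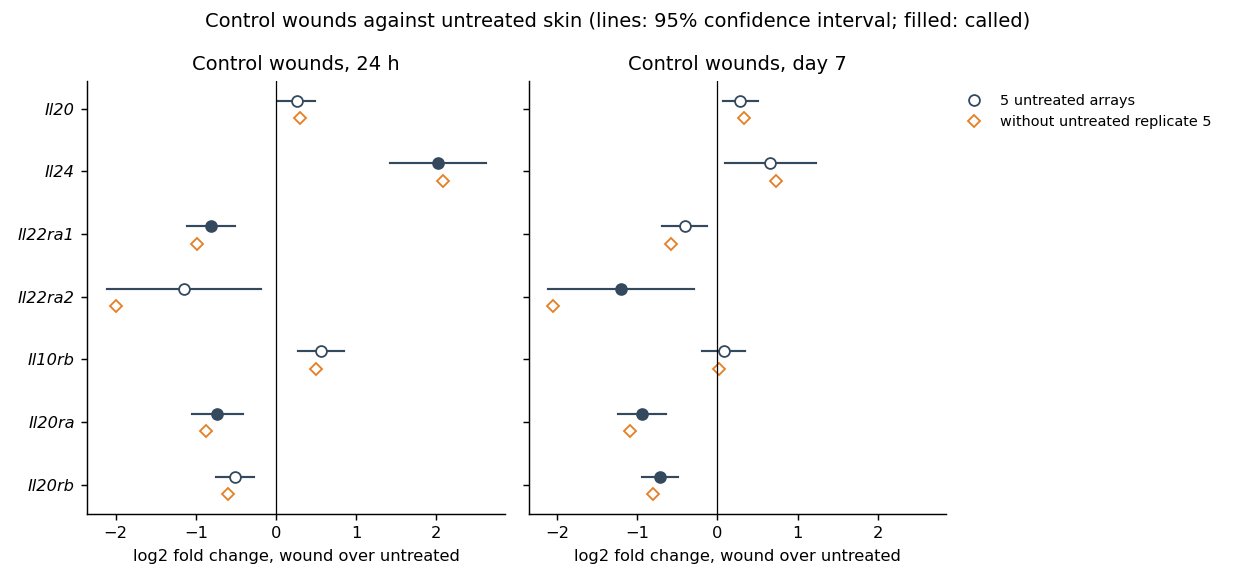
Log2 fold change of each measured member in control wounds over untreated skin (horizontal axis) at 24 h and day 7. Circles with lines are the fit of all arrays with 95% confidence intervals, filled where called, and diamonds are the values without untreated replicate 5. Il24 stands at 2.02 at 24 h and 0.66 at day 7, and the Il22ra2 values move to -2.00 and -2.05 without that array.

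Between the times, Il24 was lower in day 7 control wounds, at 5.10, 4.61, 5.02, 4.84 and 4.90, against 6.79, 6.63, 5.80 and 5.78 at 24 h. The groups were separate, the change was -1.35 (SE 0.30, adjusted p = 0.00048), and it was the 1 of 7 members called, where 13.2% of all probe sets were. Il22ra1 was 0.41 higher at day 7 (adjusted p = 0.032) and Il10rb changed by -0.48 (adjusted p = 0.0078), both short of 1.5-fold.

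Lists of other genes of the pathway were also read in control wounds against untreated skin. Of the 14 JAK-STAT genes 7 were called higher at 24 h than in untreated skin and none lower, with a median of 0.78 where all probe sets had 0.03. Socs3 (3.34), the phosphatase Ptpn6 (1.78), Socs1 (1.39) and Stat3 (1.23) led, while Tyk2 (0.53) and Socs2 (0.42) did not pass the rule. At day 7 only Socs3 (1.62) of this list was called against untreated skin, and 8 of the 14 were lower at day 7 than at 24 h. Among inducers of Il22 and genes of its producing cells, 7 of 14 were higher at 24 h, including Il1b (6.29), Il6 (4.91), Il7r (1.43) and Batf (1.21), and the transcription factor gene Rora was lower (-1.12). The list of genes known to respond to IL-22 had 14 of 22 higher and 1 lower at 24 h and 20 higher at day 7, with Krt6b at 8.36 and 8.70. Neutrophil markers rose as well at 24 h, 5 of 7 with a median of 3.10, and all 6 adipocyte markers were lower, with a median of -1.44. Their part in the result was not tested. Without untreated replicate 5, an alternative chosen after seeing the data, these counts were the same except that 2 genes known to respond to IL-22 were lower at 24 h and 19 higher at day 7, and the adipocyte median was -1.93. In this setting at day 7, all 13 monocyte and macrophage markers were called higher, where 17.3% of all probe sets were called. All 7 skeletal muscle and 6 adipocyte markers were lower, and of 8 fibroblast markers 5 were higher and 1 lower. The part of these cell types was not tested.

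The order of the 9 groups was read for each measured member. For Il22ra1, Il22ra2, Il20ra and Il20rb untreated skin had the highest mean, at 6.43, 8.84, 7.75 and 8.12, and VEGF wounds of day 7 the lowest, at 5.06, 6.59, 6.31 and 6.63. Untreated skin stayed first for these 4 without its replicate 5, at 6.61, 9.69, 7.90 and 8.21. For Il24 the 4 groups of 24 h came first, at 6.25 in the control, 6.24 with PDGF, 6.08 with IL-22-Fc and 5.74 with VEGF, and untreated skin came last at 4.23. For Il10rb, PDGF wounds of day 7 (5.66) and of 24 h (5.61) came first and untreated skin (4.98) last. For Il20 the means ran from 5.10 with IL-22-Fc at day 7 to 4.52 in untreated skin. Of 56 neighbouring pairs in these orders 2 did not overlap, Il22ra2 between the day 7 control and PDGF and Il20ra between the day 7 control and VEGF. An exact permutation test gave a p under 0.05 for 7 of the 56 pairs, and none held after adjustment over them (smallest adjusted p = 0.32).

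The genes whose levels followed each member most closely over the 42 arrays were listed with their Pearson r, which reflects differences between groups as well as between arrays. Leaving out untreated replicate 5 moved none of the 28 values by more than 0.027. Il20rb went with Sbsn (0.95), Chdh (0.94), Acer1 (0.94) and Kctd15 (0.94). Il22ra2 went with Ifngr1 (0.91), the interferon gamma receptor chain, and with Npr3 (0.90), Sfrp5 (0.89) and Lpgat1 (0.88). Il22ra1 went with Klf4 (0.90), a transcription factor of the differentiating epidermis, and with Dkkl1 (0.88), Spns2 (0.87) and Crct1 (0.87). Il24 went with Isy1 (0.91), Stx11 (0.90), Nlrp3 (0.90), the sensor of an inflammasome, and Cyp4f18 (0.90). Il20ra went with Anxa8 (0.85), Chdh (0.84), C77080 (0.83) and Bicdl1 (0.83), so Chdh stood in the lists of both chains of the IL-20 receptor. For Il10rb, Tifab was closest at 0.78, followed by Rin3, Zeb2 and Ap5b1, and for Il20, whose readings lay near background, Cyp2c29 at 0.70, followed by Stfa3, Gm11545 and Sprr2h.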

How the data were processed

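RNA of skin around wounds was hybridised to Affymetrix arrays. The deposited values are RMA intensities on a linear scale (3.85 to 23537, median 50.8) for 20672 probe sets, and the authors kept 1 probe set per gene. A log2 scale had been assumed in the design, so log2 was taken here with no further scaling. Of the probe sets 17928 had 1 gene symbol, 79 several and 2665 none. Groups were taken from the labels. Tests were fitted with limma 3.58.1 in R 4.3.3 (lmFit and eBayes) over all probe sets, within the 24 h arrays, within the day 7 arrays, in the 37 wound arrays for the difference of effects, and in all 42 arrays for control wounds against untreated skin, with Benjamini-Hochberg adjustment. A call needed an adjusted p under 0.05 and 1.5-fold. Exact permutation tests were 2-sided, went through every split of the arrays and used numpy 2.4.6 in Python 3.11.15. The fits were tested on simulated data. The number of arrays limits the precision. Members, gene lists and tests were chosen with earlier results of these data known. Named were all measured members, from each pathway list up to 4 called and 2 other genes by size of change, and the 4 genes most correlated with each member. Other normalizations, offsets, filters, thresholds, weights, covariates and sets of arrays were tried. Promoter windows came from RefSeq.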

Additional observations from a re-analysis of the deposited data

Results flagged for a closer look

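In 56 sets of 4 or 5 arrays of a group, 1 member each, 5 held an array far from the others, where chance gives about 1 in 20. Il22ra2 read 8.52 in PDGF replicate 5 of 24 h, with the next array at 7.69. It read 5.46 in untreated replicate 5, with the next at 9.08. Il20ra read 5.93 in VEGF replicate 4 of day 7, with the next at 6.37, and 6.67 in control replicate 2 of 24 h, with the next at 7.11. Il20rb read 7.95 in VEGF replicate 1 of 24 h, with the next at 7.60.

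The effect of a treatment against its control differed between day 7 and 24 h for 7 pairs of member and treatment by the interaction term in limma. For IL-22-Fc this was Il22ra1, with a difference of 0.76, which was not called with 16 added before log2. For VEGF these were Il22ra1 (-1.05), Il22ra2 (-1.39), Il20ra (-0.72) and Il20rb (-0.81). Keratinocyte markers had a mean of 9.30 with VEGF and 9.98 in the control at day 7, whose part was not tested. For PDGF these were Il22ra2 (-0.93) and Il20rb (0.59), of which neither was called with the 5' level as a covariate.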

How the results depend on the processing

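No called value changed sign under any alternative. Of the values of single members, 2604 kept their side of the threshold, 60 lost a call and 41 gained one. The counts of called members that moved by more than 1.5 times under an alternative were as follows, and the causes were not tested. With a further quantile normalization the PDGF time difference had 1. With 16 added before log2, IL-22-Fc against PDGF at day 7, PDGF against control at day 7 and the PDGF time difference had 1 each, and the IL-22-Fc time difference 0. With array weights, PDGF against control at day 7 had 1 and control wounds against untreated skin 5 at both times. With all 42 arrays in the fit, PDGF against control at day 7 had 1. With no fold threshold, which only adds calls, the counts were 4 for IL-22-Fc against PDGF at day 7, 1 for IL-22-Fc against VEGF and 2 for VEGF against PDGF at 24 h, 5 for control wounds against untreated skin at both times and 3 between the control times. Of all 20672 probe sets, this rule gave 3524 higher and 4353 lower for IL-22-Fc against PDGF at day 7. It gave 39 and 103 for IL-22-Fc against VEGF and 1420 and 471 for VEGF against PDGF at 24 h. Control wounds against untreated skin had 3988 and 4184 at 24 h and 3758 and 3839 at day 7, and the control times 2917 and 3314. Shares of all probe sets under the other alternatives are not given here. At 2-fold, IL-22-Fc against PDGF, VEGF against PDGF and VEGF against control at day 7 had 1 each, PDGF against control 0, control wounds against untreated skin 1 at both times, and the time differences 0 for IL-22-Fc, 2 for VEGF and 0 for PDGF. Taking the 5' level as covariate left 0 in the 3 day 7 comparisons with PDGF and in its time difference. Leaving out 1 array at a time gave counts of 0 to 1 for IL-22-Fc against VEGF at 24 h, 1 to 2 for IL-22-Fc against PDGF and for PDGF against control at day 7, 0 to 3 for the PDGF time difference, 3 to 5 for control wounds of 24 h and 2 to 4 for those of day 7 against untreated skin, 3 to 4 for VEGF against control at day 7, 4 to 5 for its time difference and 2 to 3 in the F test. No paired analysis was possible because the labels give no replicate numbers. Il20 and Il24 were near background in many groups, which limits what their readings show.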
